A study of Mus musculus with 66 samples.

Results

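A set of 100 mouse genes was examined that the small oocytes of the P6 ovary carried at a higher level than any stage of an oocyte culture course. Members were chosen from 9371 genes with a mean of at least 10 RPM (reads of the gene scaled to a library total of 1000000) in P6 small oocytes, out of 24062 genes in the table. For each gene the largest group mean of the course was subtracted from the P6 small mean, both as log2(RPM + 1), and the 100 genes with the highest difference (the score) were kept. The study sequenced poly(A) RNA of female germ cells and oocytes from ovaries, and of oocytes grown from embryonic stem cells (ESCs), in 66 libraries of 24 groups. Ovaries with a stella-ECFP reporter (strain C57BL/6 x B6D2F1) gave germ cells of 3 embryonic ages, the last of them E18.5, and oocytes after birth at P1 and P3, all in 3 libraries a group. At P4 and again at P6, small and large oocytes were collected apart, also with 3 libraries a group. The culture course ran over 9 times from D5 to D20 with 3 libraries a time. It came from reconstituted ovaries, in which germ cell-like cells made from ESCs were aggregated with somatic cells of the E12.5 gonad. At D21 there were 6 groups with 2 libraries each, of wild type (WT) oocytes or of oocytes with the Foxo3dNES transgene (Tg). Each genotype was kept in normoxia (air with added CO2), in hypoxia (5% O2), or with no oxygen condition in the labels. All cultures shared the strain label C57BL/6 X 129/SvJ, the stage in reconstituted ovaries and a Rock inhibitor at the start, so culture and strain cannot be told apart in any comparison of cultured with ovarian oocytes. The promoter of the transgene and the number of ESC clones behind the Tg groups are not given in the sources used here. Replicates are labelled as biological triplicates or duplicates.

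Most oocytes of a newborn mouse enter primordial follicles, where they stay small and dormant, while a few begin to grow at once. FOXO3, a transcription factor, keeps the dormant oocyte from growing while it sits in the nucleus, and PI3K signalling sends it to the cytoplasm. In oocytes grown from stem cells most cells start to grow without passing through a dormant stage, and low oxygen and nuclear FOXO3 are the conditions that the D21 set compares. Foxo3dNES is a form of FOXO3 without its nuclear export signal.

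Sequencing depth (M is a count of 1000000 reads) was 13.9 to 23.2 M for the ovarian libraries and 14.7 to 22.8 M for those of the course. D21 libraries had 15.9 to 21.3 M with given oxygen and 4.84 to 8.72 M without an oxygen label. All 13 oocyte markers fixed for the label check, among them Ddx4 and Gdf9, were read in every D21 group. Their library sums were 9972 to 10041 RPM in P4 small, 31370 to 39974 RPM in WT normoxia, 21913 to 23598 RPM in WT hypoxia, 26875 to 27764 RPM in Tg normoxia and 19230 to 21086 RPM in Tg hypoxia. The library sums of 18 granulosa cell markers were 27.4 to 39.0 RPM in P4 small oocytes and 145 to 339 RPM in WT normoxia. They were 33.8 to 52.9 RPM in WT hypoxia, 176 to 255 RPM in Tg normoxia and 38.3 to 50.5 RPM in Tg hypoxia. No member was on the lists of oocyte, granulosa, stroma or blood markers, and 1 member, Vwf, was on the endothelium list. These are bulk samples, so fewer dormant-like oocytes in a pool and less RNA of a gene in each oocyte cannot be told apart. The labels do not say whether D21 oocytes were sorted by size.

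The scores, which chose the members and are given without a test, ran from 1.5 to 4.59 with a median of 1.80. Of the 100 members, 35 had a score of at least 2 and 8 of at least 3. P6 small means ran from 10.1 to 1357 RPM with a median of 45.9 RPM; 24 members were under 20 RPM and 31 over 100 RPM. The course came closest to P6 small at D13 for 35 members, at D11 for 30, at D20 for 14 and at D10 for 8, and at D7 for 0. Outside P6 small, the highest ovarian group mean was that of P4 small in 66 members and of P3 in 26, and the heatmap of group means shows the same few columns standing out. Just inside the threshold were Aim1, Wdr17, 9230105E05Rik, Rufy2 and Card10 with scores down to 1.5, and just outside it were genes from Neb (1.49) to Lmtk2 (1.48), among them Foxn3 and Lrrc3.

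**Figure D1:**
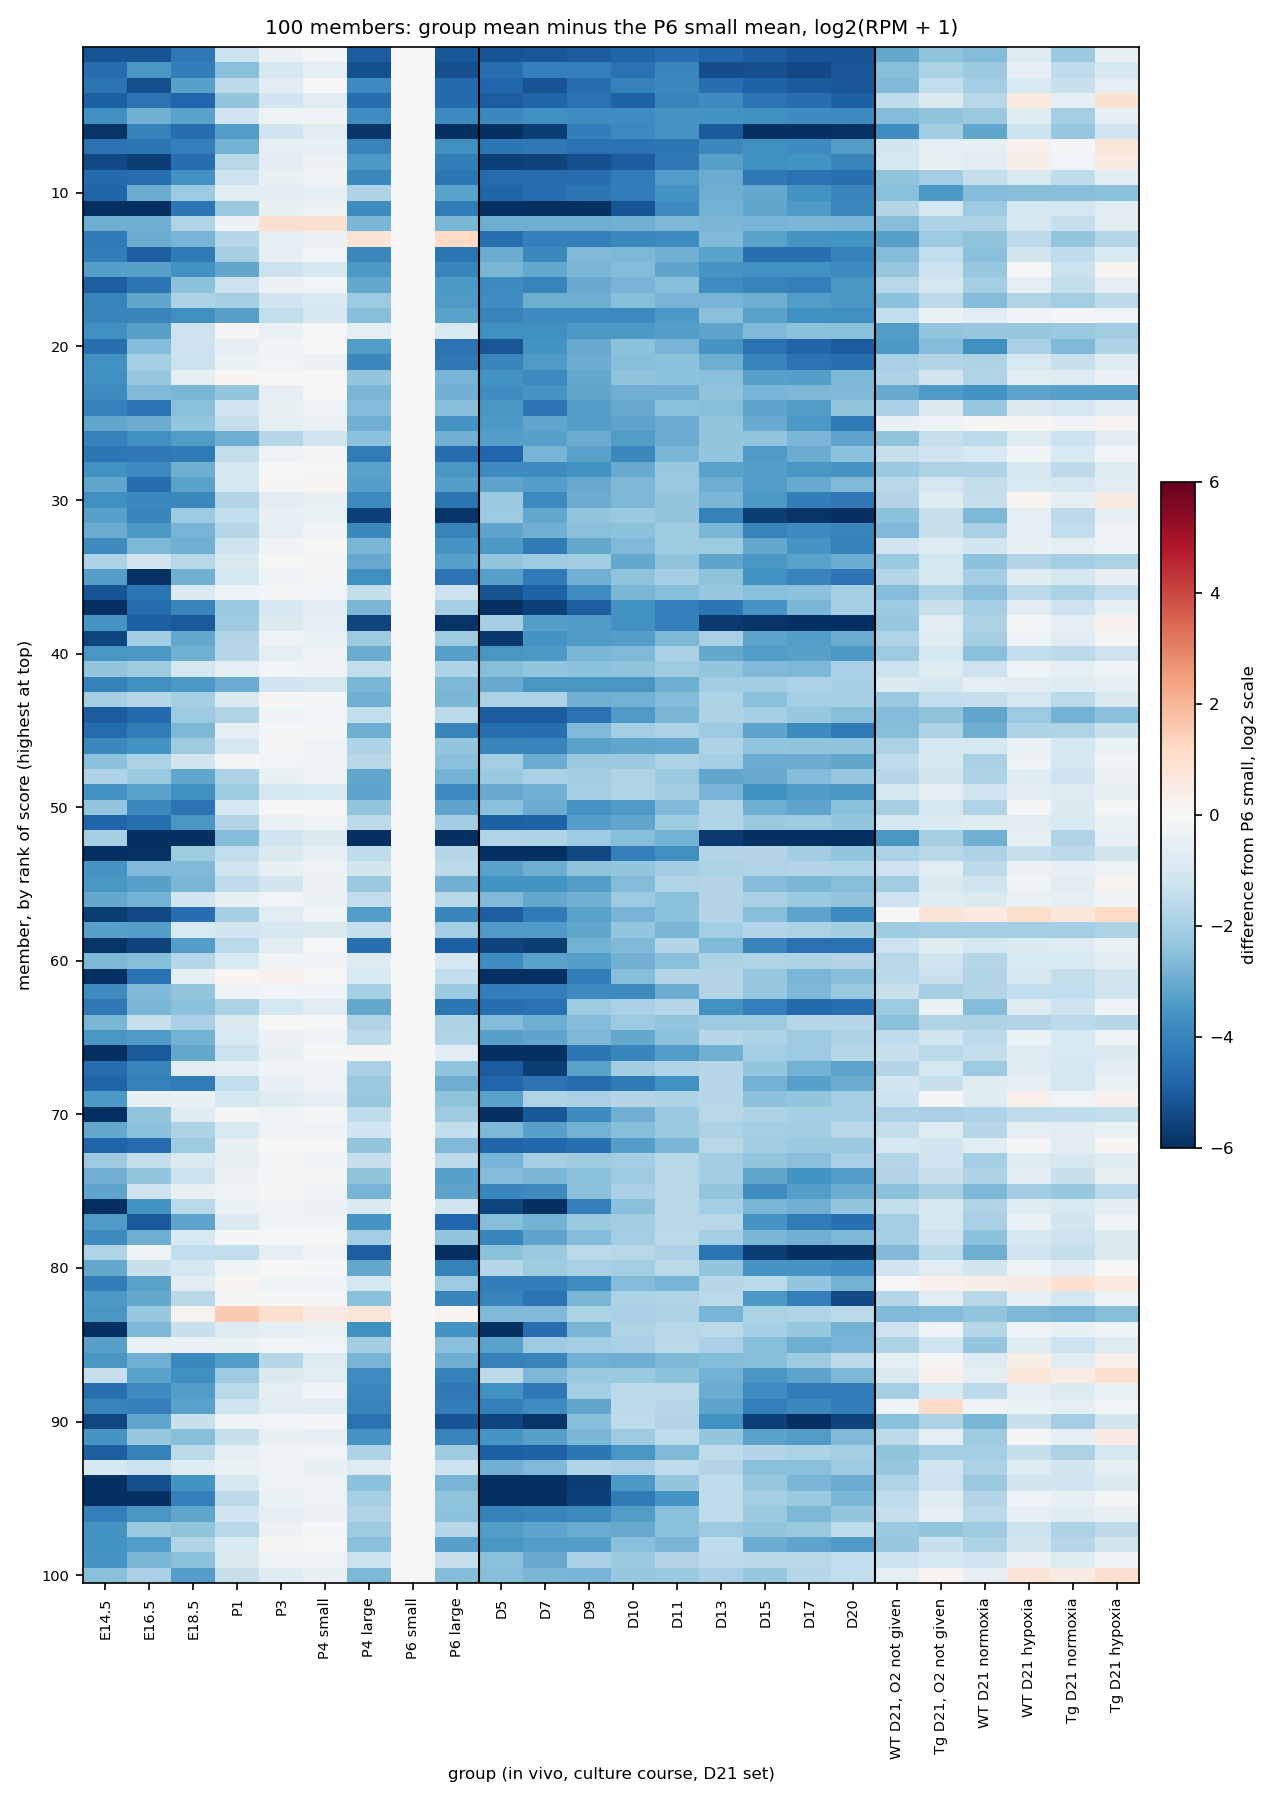
Group means of the 100 members (rows, in order of score) in the 24 groups (columns), each as the difference from the member's own P6 small mean on the log2(RPM + 1) scale; black lines separate the ovarian, culture course and D21 groups. P3 and P4 small are pale, the large oocytes and the course are mostly blue, and the D21 columns are intermediate, palest in the 2 hypoxia groups.

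An unplaced gene, a kinase and a receptor stood near the head of the ranking. 5430421N21Rik, for which the tables used here gave no locus, had the highest score: its P6 small libraries held 31.1, 33.4 and 44.0 RPM, its D11 libraries, the highest of the course, 0.239, 0.420 and 1.02 RPM, and it was at 0 in all 3 D20 libraries. Camk1g, a calcium/calmodulin-dependent kinase, had 46.6, 70.3 and 71.5 RPM in P6 small and 2.68, 3.36 and 4.02 RPM at D11. No library of these 2 genes overlapped between the groups named, a result that the choice of members by P6 small and course means favours. It was not particular to them: in 99 members the lowest P6 small library was above the highest course library. Insrr, a receptor tyrosine kinase of the insulin receptor family, had 25, 33.0 and 31.8 RPM in P6 small and 0.347, 1.96 and 1.82 RPM at D13. Insrr lies at chr3:87796908-87816101 on the plus strand.

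The other leading members were of mixed kinds. Rab37, a small GTPase of vesicle secretion, reached 50.8 ± 4.47 RPM in P6 small (SD, n = 3) and 4.46 ± 1.33 RPM at D13, its highest course group. Pgm5, a phosphoglucomutase-like protein of cell junctions, had 71.0 ± 3.38 RPM in P6 small and 6.07 ± 4.21 RPM at D11. Wscd2 was at 231 ± 15.5 and 31.9 ± 2.99 RPM in P6 small and at D13. Others of the leading 15 were the hair keratin Krt85, the pseudogene 2210409E12Rik, the noncoding Gm6878, the sulfotransferase Sult1c1, uromodulin (Umod), prestin (Slc26a5), the guanine nucleotide exchange factor Arhgef28 and the membrane protein Tmem151b. Sult1c1, Umod and Slc26a5 varied widely between P6 small libraries: Umod was at 2.57, 3.21 and 28.6 RPM, so 1 library carried most of its mean.

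Promoters are shown for 2 members whose hypoxia values are given later, Adam19, with the largest change in WT oocytes, and Plekhb2, called in both genotypes. RefSeq (GRCm38.p6, the same assembly as the mm10 of the submitters' processing notes) held a promoter of 250 bases before to 50 after the start for 68 members. The letters searched on both strands were ACGTG and GCGTG, the core letters bound by hypoxia-inducible factors, and GTAAACA, bound by forkhead factors. ACGTG occurred in 12 of 68 member promoters (17.65%) and in 19.67% of all 27025 promoters, and GCGTG in 24 (35.29%) against 32.46%. GTAAACA occurred in 4 (5.882%) against 3.549%. A match is a description of letters and no evidence of binding, and these shares were not tested. Both stretches are the 250 bases before the start, 5′ to 3′ on the gene's strand, with matches in capitals. Adam19 was read at chr11:46054252-46054501 (plus) and Plekhb2 at chr1:34849709-34849958 (plus).
Adam19: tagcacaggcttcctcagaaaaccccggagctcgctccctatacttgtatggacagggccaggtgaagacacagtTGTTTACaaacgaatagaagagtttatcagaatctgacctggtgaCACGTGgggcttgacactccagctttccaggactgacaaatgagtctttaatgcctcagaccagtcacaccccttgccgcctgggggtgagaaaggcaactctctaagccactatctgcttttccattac
Plekhb2: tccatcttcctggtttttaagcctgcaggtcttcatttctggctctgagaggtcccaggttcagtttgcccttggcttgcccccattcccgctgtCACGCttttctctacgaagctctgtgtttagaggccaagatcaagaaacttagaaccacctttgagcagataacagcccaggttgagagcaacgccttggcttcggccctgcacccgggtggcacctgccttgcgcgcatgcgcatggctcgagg
In Adam19 the forkhead letters lie on the minus strand, and the palindrome CACGTG counts as ACGTG on both strands. Plekhb2 has GCGTG on the minus strand.

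Small and large P4 oocytes, which the choice of members did not use, were compared to see whether the members differ with oocyte size at an earlier age. All 100 members passed the filter of a mean of 1 RPM in at least 1 group. By limma, on log2(RPM + 1) and with Benjamini-Hochberg adjustment over 15369 genes, 93 were higher and 1 was lower in small oocytes, where 48.6% of all genes were higher and 20.4% lower. In 93 members the groups did not overlap in that direction, against 52.8% of all genes. The median log2 difference was 2.35 over the members and 0.34 over all genes tested. Rescaling by median-of-ratios moved the median of all genes to 0.02 and the split of all calls from 7467 higher and 3133 lower to 4771 and 5024, while the members' median became 1.93. Other lists were higher in the same small oocytes: 22 of 23 immediate early genes (0 lower, median 1.78), 10 of 16 granulosa markers (2 lower, median 0.86) and 7 of 9 stroma and theca markers (0 lower, median 0.91). Granulosa marker sums were 27.4 to 39.0 RPM in small and 15.5 to 23.2 RPM in large oocytes, and those of stroma and theca 13.3 to 21.9 and 2.42 to 4.98 RPM. Their part in the members' difference was not tested.

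Adam19, a membrane metalloprotease, showed the largest difference. It had 237, 171 and 288 RPM in the P4 small libraries and 1.21, 0.660 and 1.73 RPM in the P4 large ones, a log2 difference of 6.73 (SE 0.39, adjusted p = 6.5e-13 by limma). Slc38a1, a glutamine transporter, held 154, 126 and 185 RPM against 3.17, 2.70 and 3.92 RPM, a difference of 5.19. Every small library of both genes was far above every large one. Pgm5 (5.15), the kinase Aatk (4.90) and the cholesterol exporter Abca1 (4.71) followed. Adam12, the other ADAM metalloprotease among the members, differed less, at 1.75, with 239 ± 23.8 RPM in the small group against 70.4 ± 5.70 RPM in the large one (n = 3).

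Slc26a5, whose protein prestin is a motor of the outer hair cell, was the member called lower in small oocytes. Its P4 small libraries had 11.9, 31.0 and 16.1 RPM and its P4 large libraries 23.8, 39.4 and 78.4 RPM, so the groups overlapped, with a log2 difference of -1.16 (adjusted p = 0.037 by limma). That call was lost with a pseudocount of 0.5, with no filter, and without P4 small replicate 1 or 3 or P4 large replicate 2 or 3. It was also high in large oocytes at P6, at 84.9, 36.7 and 56.5 RPM.

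Against E18.5 germ cells, 90 members were higher and 0 lower at P3 by limma, where 25.7% of all genes were higher and 32% lower; edgeR and DESeq2 also called 90 and 0. In 90 members every P3 library was above every E18.5 library, against 28.5% of all genes. At an unadjusted p under 0.05 limma had 90 members higher and 0 lower, a count not made over all genes. The median difference was 2.17 over the members and -0.07 over all genes. Lists of other cells were lower at P3: 11 of 16 granulosa markers (0 higher, median -1.05) and 6 of 9 stroma and theca markers (0 higher, median -1.01), and of 23 immediate early genes 11 were lower and 3 higher (median -0.57). Granulosa marker sums were 67.0 to 122 RPM at E18.5 and 21.1 to 47.1 RPM at P3, and those of stroma and theca 37.1 to 79.3 and 9.66 to 25.3 RPM. Their part in the members' rise was not tested. Adam19 rose again by the most, from 3.32, 4.28 and 3.64 RPM to 130, 226 and 173 RPM (log2 5.19, adjusted p = 2.5e-10 by limma). Psd2, an exchange factor for ARF GTPases, went from 1.87 ± 1.01 to 58.7 ± 10.1 RPM (n = 3), a log2 difference of 4.42. Aatk (4.22), Igfbp6, a binding protein of insulin-like growth factors (3.96), and Rab37 (3.95) were next. No library at E18.5 reached the lowest at P3 in these 5 genes.

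Between P3 oocytes and P4 small oocytes no member was called in either direction by limma, edgeR or DESeq2, where 0% of all genes were higher and 0.00651% lower by limma. At an unadjusted p under 0.05, 4 members were higher and 0 lower, a count not made over all genes. The members' median was 0.12 with quartiles of -0.02 and 0.27. Pde10a, a cyclic nucleotide phosphodiesterase, had the largest difference, with 17.6, 19.0 and 27.6 RPM in P4 small and 7.30, 15.9 and 9.80 RPM at P3.

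Foxo3, the gene that names the transgene, is no member. It had 178, 171 and 215 RPM in P4 small and 95.0, 88.7 and 101 RPM in P4 large oocytes. At D21 it had 88.5 and 44.8 RPM in WT normoxia, 128 and 123 RPM in WT hypoxia, 322 and 324 RPM in Tg normoxia and 367 and 364 RPM in Tg hypoxia. Reads of the transgene and of the endogenous gene cannot be told apart in these values. Every Tg library was above every WT library. The Tg difference was 2.34 in normoxia (SE 0.29, adjusted p = 0.062 by limma) and 1.53 in hypoxia (SE 0.29), and neither was called. Without an oxygen label it was 2.02 (adjusted p = 0.027 by limma). Foxo3 was also higher in WT hypoxia than in WT normoxia, by 0.99 (adjusted p = 0.035 by limma). In Tg that change was 0.18 and not called.

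The median over the members, as log2(RPM + 1), was 5.27, 5.04 and 5.32 in the P4 small libraries and 2.06, 2.03 and 2.07 in the D20 libraries. At D21 it was 4.08 and 3.97 in WT normoxia, 5.04 and 4.78 in WT hypoxia, 4.51 and 4.38 in Tg normoxia, and 5.17 and 5.14 in Tg hypoxia. Each hypoxia library was above each normoxia library of either genotype. All 8 of these libraries were above the D20 libraries, whose values were among those that chose the members. The 4 normoxia libraries were below every P4 small library, and both Tg hypoxia libraries lay between P4 small libraries. The 100 members took 0.989% to 1.14% of all reads in P4 small, 0.33% to 0.427% in WT normoxia, 0.758% to 0.822% in WT hypoxia, 0.584% to 0.674% in Tg normoxia and 0.841% to 0.894% in Tg hypoxia.

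**Figure D2:**
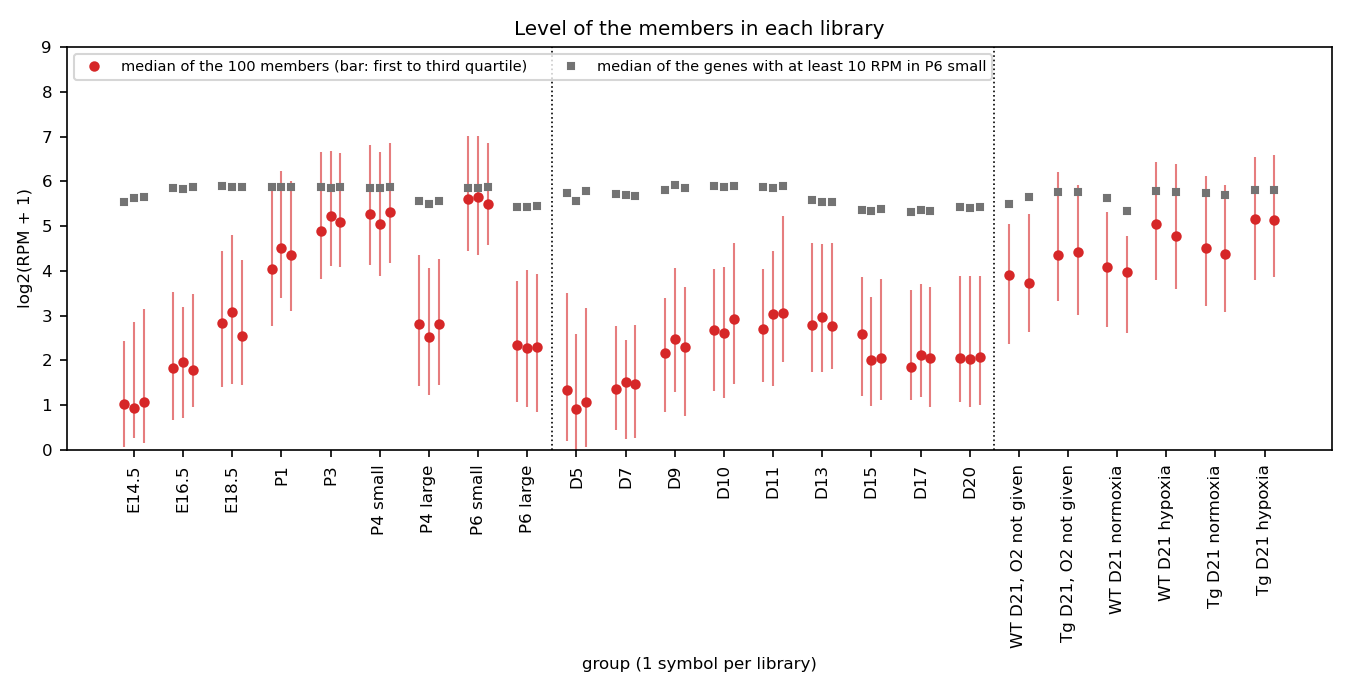
Median of the 100 members (circles; bars from the first to the third quartile) and of the 9371 genes with at least 10 RPM in P6 small (squares) in each of the 66 libraries, as log2(RPM + 1) on the vertical axis, by group on the horizontal axis. The circles are near 5 in P3, P4 small and P6 small, near 2 at D20 and at 4.78 to 5.17 in the 4 hypoxia libraries, while the squares stay between 5 and 6.

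Hypoxia was compared with normoxia in WT oocytes to see whether low oxygen moves the genes that the course did not bring to the P6 small level. By limma over 14392 genes, 62 members were higher and 0 lower in hypoxia, where 15.9% of all genes were higher and 6.55% lower. In 88 members both hypoxia libraries were above both normoxia libraries, against 40.8% of all genes. At an unadjusted p under 0.05, 79 members were higher and 0 lower, a count not made over all genes. The median log2 change was 1.0 over the members, with quartiles of 0.63 and 1.41, and 0.14 over all genes. edgeR called 57 higher and DESeq2 63, with 0 lower by either. Over all genes edgeR called 1793 higher and 1866 lower, and DESeq2 2197 and 2522. After median-of-ratios rescaling the all-gene median was -0.04, the split of all calls moved from 2295 higher and 942 lower to 1606 and 1445, and 55 members were called higher with a median of 0.84. The counts rest on all 4 libraries. Without either WT hypoxia library the calls fell steeply, both over the members and over all genes. Without WT normoxia replicate 1 both rose, and without WT normoxia replicate 2 both fell. The members' median stayed between 0.81 and 1.20 in these fits, which take the lone library of a group to vary like the other groups.

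Adam19 rose most, from 64.8 and 44.2 RPM in normoxia to 302 and 242 RPM in hypoxia, a log2 change of 2.31 (SE 0.30, adjusted p = 0.0049 by limma). Its hypoxia libraries lay within the 171 to 288 RPM of P4 small or above it. Insrr, the alkali-sensing relative of the insulin receptor, rose from 9.99 and 7.68 to 49.1 and 42.0 RPM (log2 2.25, SE 0.18, adjusted p = 0.00068 by limma). Both hypoxia libraries exceeded every P4 small and P6 small library of this gene. Tmem151b rose from 2.70 and 2.14 to 16.6 and 15 RPM (2.30), and Slc38a1 from 39.8 and 23.0 to 140 and 125 RPM (2.09). Vwf, the blood clotting factor of endothelial cells, rose from 5.47 and 2.44 to 17.7 and 17.4 RPM (1.98). The other 7 endothelium markers summed to 12.3 to 23.1 RPM in WT normoxia and 24.1 to 44.9 RPM in WT hypoxia, and their part in the change of Vwf was not tested. Vwf also differed between the sizes at P4, at 18.4, 8.14 and 17.1 RPM in small and 1.15, 0.540 and 0.576 RPM in large oocytes, where the same 7 markers summed to 12.6 to 15.8 and to 15.9 to 23.8 RPM.

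Other genes near the head of the ranking moved the same way in WT. 5430421N21Rik went from 5.59 and 4.58 to 22.6 and 18.3 RPM (log2 1.81, adjusted p = 0.0081 by limma). Camk1g went from 16 and 12.6 to 31.7 and 33.8 RPM (1.15). Hypoxia and normoxia libraries did not overlap in either gene. Among the leading 15, Gm6878, Sult1c1, Umod and Slc26a5 were not called; Sult1c1 had 1.63 and 6.96 RPM in normoxia and 4.04 and 3.28 RPM in hypoxia. Abca1, which exports cholesterol, went from 42.2 and 15.8 to 83.4 and 96.8 RPM (1.75). Adam12, a metalloprotease of cell fusion and matrix, went from 79.1 and 44.8 to 159 and 158 RPM (1.40).

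Granulosa cell markers moved the other way in the same libraries: 7 of 14 tested were lower and 0 higher in WT hypoxia. Of the 13 oocyte markers, whose sums are given above, 1 was higher and 3 were lower (median 0.02). The part of these markers in the rise of the members was not tested. Of the 25 tested genes on the list for dormancy and PI3K control, 10 were higher and 1 lower in WT hypoxia, with a list median of 0.57. Of 39 hypoxia-inducible factor (HIF) targets 15 were higher and 2 lower (median 0.52), and of 27 FOXO targets 8 and 4 (median 0.36). Immediate early genes, which respond to handling and to growth signals, had 1 higher and 6 lower of 23 (median -0.39). No member is on these 4 lists or on the list of p53 targets, of which 3 were higher and 1 lower of 21.

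Of 18 genes of cholesterol and lipid export, with Abca1, 5 were higher and 2 lower in WT hypoxia. ADAM and ADAMTS proteases, with Adam12 and Adam19, had 3 higher and 3 lower of 16. Ion channels and membrane transporters, with Slc38a1, had 3 higher and 0 lower of 18, and extracellular matrix and adhesion genes, with no member, 2 and 1 of 21. List medians were 0.29 to 0.46 for these 4 lists, against 0.14 for all genes.

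In Tg oocytes the hypoxia comparison used libraries of its own. Its spread estimate per gene came from the fit over all 12 D21 libraries, as in WT, so the limma calls of the genotypes are not independent. By limma 5 members were higher and 0 lower, where 0.153% of all genes were higher and 0.869% lower. At an unadjusted p under 0.05, 42 members were higher and 0 lower, a count not made over all genes. In 87 members both hypoxia libraries were above both normoxia libraries, against 42.8% of all genes. The median log2 change was 0.52 over the members and 0.07 over all genes. All 5 were also among the 62 called in WT, or 8.06% of those. Insrr went from 21.6 and 20.1 to 54.1 and 59.6 RPM (log2 1.40, SE 0.18, adjusted p = 0.025 by limma), and 5430421N21Rik from 7.22 and 6.43 to 26.1 and 26.6 RPM (1.81). Pde10a rose from 24.5 and 22.2 to 42.8 and 47.6 RPM (0.93), and Plekhb2, a pleckstrin-homology protein of endosomes, from 83.5 and 74.9 to 139 and 155 RPM (0.88). The count was 9 after median-of-ratios rescaling, 11 by edgeR, 23 by DESeq2 and 0 with no filter. Over all genes the calls in that order were 32 higher and 188 lower, 56 and 309, 256 and 788, and 0 and 0. The members' calls did not hold when any 1 library of either group was left out.

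**Figure D3:**
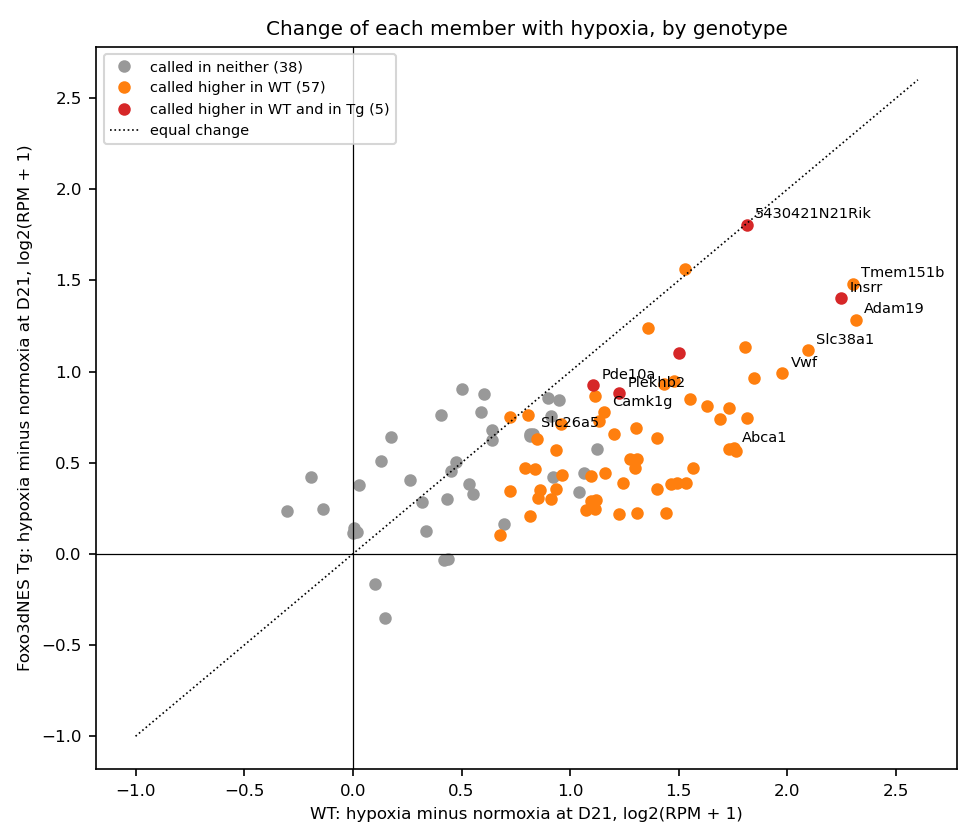
Change of each of the 100 members from normoxia to hypoxia at D21 in WT (horizontal axis) and in Foxo3dNES Tg oocytes (vertical axis), as differences of mean log2(RPM + 1), coloured by the limma calls; the dotted line marks equal change. Most points lie right of 0 and above 0, and below the dotted line, with medians of 1.0 in WT and 0.52 in Tg; 5 are called in both, 57 in WT alone and 38 in neither.

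The difference between the hypoxia changes of the genotypes was tested as an interaction. No member was called by limma, edgeR or DESeq2, where 0% of all genes were called in either direction by limma. The median of the difference, Tg minus WT, was -0.50 over the members and -0.12 over all genes. At an unadjusted p under 0.05, 26 members were lower and 0 higher, a count not made over all genes. For Adam19 the difference was -1.03 (SE 0.43) and for 5430421N21Rik -0.01 (SE 0.42). The count of calls depended on which library was left out, and the members' median ranged from -0.59 to -0.25 in those fits.

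Tg and WT oocytes were compared within each oxygen condition to see whether the transgene alone moves the members. In normoxia limma called 0 members, where 0.00695% of all genes were higher and 0% lower. At an unadjusted p under 0.05, 53 members were higher and 0 lower, a count not made over all genes. edgeR called 0 members, and over all genes 2 higher and 0 lower. DESeq2 called 33 members higher, and over all genes 881 higher and 726 lower. The median difference was 0.59 over the members and 0.15 over all genes, and 74 members had both Tg libraries above both WT libraries, against 37.2% of all genes. The count of calls depended on which library was left out, and the members' median stayed between 0.47 and 0.76 in those fits. Vwf, for example, had 14.8 and 12.0 RPM in Tg and 5.47 and 2.44 RPM in WT normoxia (log2 1.60, adjusted p = 0.11 by limma). Abca1 had 87.4 and 63.7 against 42.2 and 15.8 RPM (1.49, adjusted p = 0.11 by limma). In hypoxia limma, edgeR and DESeq2 called 0 members, where 0.00695% of all genes were higher and 0% lower by limma. The median difference was 0.17 over the members and 0.04 over all genes. At an unadjusted p under 0.05, 2 members were higher and 0 lower, again a count not made over all genes. These comparisons share the normoxia or hypoxia libraries with those above. Limma did not call Foxo3 itself in either of them, so 0 calls is no measure of a lack of change.

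The D21 groups without an oxygen label gave a separate comparison of the genotypes in the shallow libraries of 4.84 to 8.72 M reads. By limma 17 members were higher and 0 lower in Tg, where 6.25% of all genes were higher and 0.605% lower. In 75 members both Tg libraries were above both WT libraries, against 41.1% of all genes. The median difference was 0.67 over the members and 0.21 over all genes. Rescaling changed the split of all calls from 899 higher and 87 lower to 679 and 208. Zfhx4, a homeodomain and zinc finger protein, had 3.51 and 7.50 RPM in WT and 18.9 and 21.2 RPM in Tg (log2 1.76, SE 0.46, adjusted p = 0.049 by limma). Pgm5 had 2.48 and 7.36 against 17.1 and 14.6 RPM (1.64), Aatk 8.88 and 24 against 47.4 and 45.3 RPM (1.59), and Adam19 23.7 and 50.4 against 99.9 and 96.3 RPM (1.47). Nupr1, a stress-induced nuclear protein, had 38.8 ± 1.48 RPM in Tg (n = 2) and differed by 1.37 from WT. The call count was 0 by edgeR, 25 by DESeq2 and 7 with no filter. Over all genes edgeR called 1 higher and 0 lower, DESeq2 1009 and 564, and the fit with no filter 430 and 49. The members' calls did not hold without either Tg library or WT replicate 1, and their count rose without WT replicate 2. Immediate early genes moved with the members (13 of 23 higher, 0 lower, median 1.47). Granulosa marker sums were 569 to 818 RPM in Tg and 272 to 320 RPM in WT. The part of these genes was not tested.

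**Figure D4:**
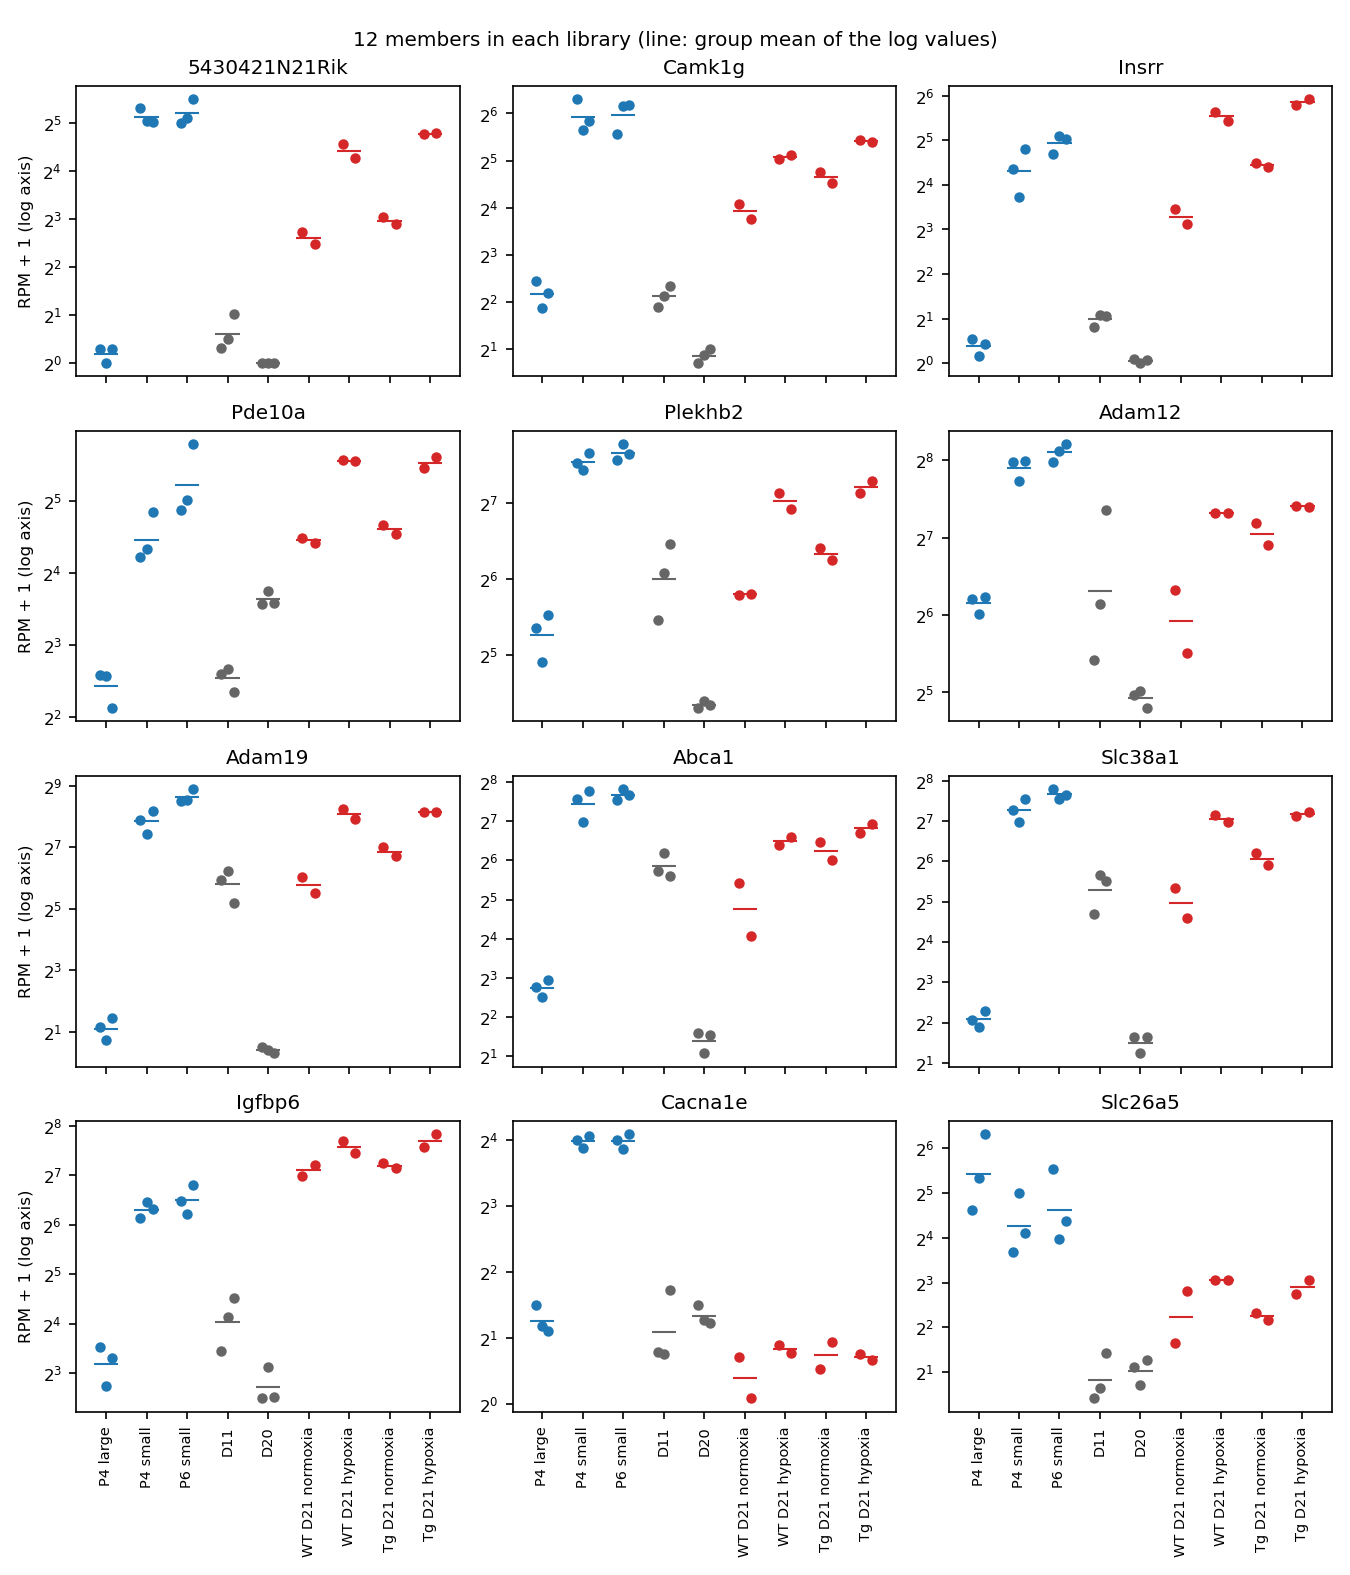
RPM + 1 (vertical axis, log scale, 1 panel per gene) of 12 members in each library of 9 groups (horizontal axis), with a line at the mean of the log values; ovarian groups are blue, D11 and D20 grey and D21 red. Adam19 has 242 and 302 RPM in WT hypoxia against 44.2 and 64.8 RPM in WT normoxia, Igfbp6 is above its P4 small libraries in all D21 groups drawn, and Cacna1e stays under 1 RPM in them.

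To read how far each D21 group came, a member was said to reach the P4 small level when its group mean was no more than 1 below the P4 small mean on the log2 scale, a description with no test. In WT normoxia 23 members reached it, where 75.6% of the 9371 genes did. In WT hypoxia 78 did (96.9% of the genes), in Tg normoxia 59 (93.9%) and in Tg hypoxia 82 (97.8%). Without an oxygen label it was 20 in WT (81.6%) and 55 in Tg (94.7%). The members' median level, as a percentage of P4 small, was 31.1% in WT normoxia, 74.6% in WT hypoxia, 55.4% in Tg normoxia and 79.8% in Tg hypoxia. In each group the members' share was below that of the genes they were chosen from, a direction that the choice by low values in culture favours. Of the 4 groups with given oxygen, 36 members reached the level in all but WT normoxia, 23 in all 4, 18 in both hypoxia groups only, 5 in Tg hypoxia only, 1 in WT hypoxia only and 17 in none. Compared with the course itself, 56 members in WT normoxia and 94 in each hypoxia group had a mean above every course mean. The shares of the 9371 genes were 13.9% in WT normoxia, 18.6% in WT hypoxia and 20.7% in Tg hypoxia. Low course means relative to P6 small chose the members, so an excess over these shares is built in by the choice.

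**Figure D5:**
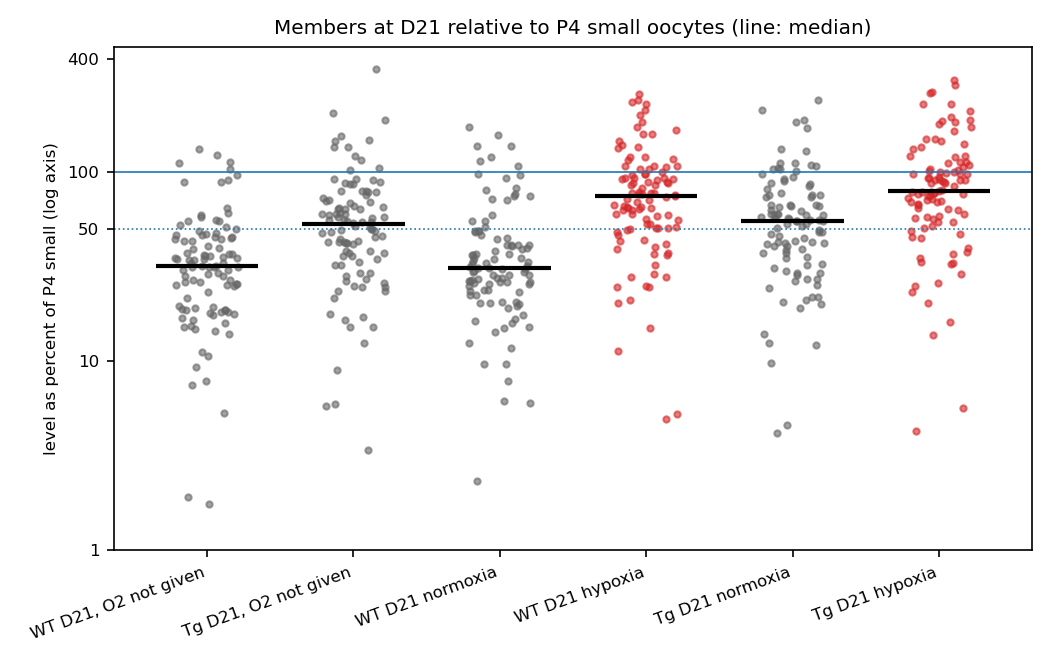
Level of each of the 100 members in the 6 D21 groups (horizontal axis) as a percentage of its P4 small mean (vertical axis, log scale), with a black line at the median and lines at 100% and 50%. The medians are 31.1% in WT normoxia, 55.4% in Tg normoxia, 74.6% in WT hypoxia and 79.8% in Tg hypoxia, and 2 members stay below 10% in each hypoxia group.

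Tests against P4 small, in which the 4 comparisons share the same 3 ovarian libraries and strain and culture differ together, gave the size of the remaining gap. By limma over 14607 genes, 84 members were lower and 2 higher in WT normoxia, where 38.2% of all genes were lower and 24.2% higher. In WT hypoxia 42 were lower and 9 higher (19.1% and 16.51% of all genes), in Tg normoxia 70 and 5 (26.7% and 21.9%), and in Tg hypoxia 30 and 11 (14.8% and 15.5%). The members' median differences were -1.59, -0.41, -0.83 and -0.30 in that order, with -0.18, -0.08, -0.08 and -0.03 for all genes. Rescaling turned the all-gene median in WT normoxia to 0.09 and the split of all calls there from 3530 higher and 5582 lower to 4784 and 4192. After it the splits in WT hypoxia went from 2411 and 2785 to 2818 and 2218, and in Tg normoxia from 3196 and 3905 to 3735 and 3081. Leaving out a library cut the lower calls to as few as 22 in WT hypoxia (without its replicate 2), 42 in Tg normoxia (without its replicate 2) and 14 in Tg hypoxia (without its replicate 1).

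Members called higher than P4 small numbered 2 in WT normoxia, 9 in WT hypoxia, 5 in Tg normoxia and 11 in Tg hypoxia. Group means above the P4 small mean, without regard to the test, were seen in 7, 26, 15 and 33 members in that order. This count was not made over all genes. The median level of the 9371 genes was 74.4%, 89.1%, 84.3% and 91.7% of P4 small in the same order. Igfbp6, which binds insulin-like growth factors, had 69.4, 87.1 and 78.8 RPM in P4 small, 126 and 147 RPM in WT normoxia, and 189 and 226 RPM in Tg hypoxia. All 8 D21 libraries with given oxygen were above all P4 small libraries, with log2 differences of 0.79 to 1.39. Hsd3b6, an enzyme of steroid synthesis, was at 14.9, 12.8 and 15.2 RPM in P4 small and 19.7 and 25.4 RPM in WT normoxia (0.61, adjusted p = 0.029 by limma). Galnt16, a glycosyltransferase, had 36.9 ± 10.7 RPM in P4 small (n = 3) and 96.4 ± 1.18 RPM in WT hypoxia (n = 2), a difference of 1.41. Card10, a scaffold of NF-kappaB signalling (1.25), Insrr (1.23) and Pde10a (1.09) were also higher in WT hypoxia. In Tg hypoxia, Insrr was 1.55 and Galnt16 1.64 above P4 small.

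At the other end 16 members reached the P4 small level in none of the 6 D21 groups, and the 8 named here were at 37.7% of it or less in all 6. Cacna1e, a voltage-gated calcium channel, had 15.1, 13.8 and 15.7 RPM in P4 small, 0.628 and 0.0595 RPM in WT normoxia and 0.847 and 0.711 RPM in WT hypoxia. Its difference in WT hypoxia was -3.16 (SE 0.30, adjusted p = 1.3e-06 by limma), and D20 libraries held 1.83, 1.41 and 1.35 RPM. Adrbk2, the receptor kinase GRK3, had 48.0, 55.8 and 43.3 RPM in P4 small, 3.83 and 2.20 RPM in WT normoxia and 12.2 and 12.0 RPM in WT hypoxia. It rose with hypoxia (log2 1.73, adjusted p = 0.0092 by limma) and was still lower than P4 small by 1.93. Zpld1, a protein with a zona pellucida-like domain, varied widely in P4 small, at 6.02, 8.18 and 29.5 RPM, and was 1.60 and 1.69 RPM in WT hypoxia. Umod, Sult1c1, Slc26a5, Cntnap5a, a contactin-associated protein, and Rgs9, a regulator of G-protein signalling, were among the 16 too.

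A pair of members outside the naming rule are given because of their known part in oocytes, chosen after their values were seen. Trp63, the p53 relative that removes damaged oocytes, had 283, 301 and 278 RPM in P4 small and 86.5 and 73.0 RPM in WT normoxia. It had 146 and 145 RPM in WT hypoxia (log2 0.86 against normoxia, adjusted p = 0.015 by limma) and 120 and 143 RPM in Tg hypoxia. Itpr1, the calcium release channel of the endoplasmic reticulum, had 1305, 1285 and 1301 RPM in P4 small, 323 and 173 RPM in WT normoxia and 656 and 680 RPM in WT hypoxia (1.49). Both stayed below every P4 small library in all 4 of these D21 groups.

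Sorted by what their proteins do, in groups drawn up after the values were known and so given without a test, 22 members were receptors and signalling proteins. Of these 17 were called higher in WT hypoxia, with a median of 1.16 there and 0.72 in Tg. The P4 small level was reached by 6 in WT normoxia, 18 in WT hypoxia, 15 in Tg normoxia and 20 in Tg hypoxia. Over all 100 members 62 were called, against 15.9% of all genes, and 23, 78, 59 and 82 reached the level in that order. The shares of the 9371 genes that reached it were 75.6%, 96.9%, 93.9% and 97.8%. Among 13 proteases, adhesion and surface proteins 9 were called, and 2, 10, 9 and 10 reached the level in the same order. Among 10 channels and transporters 5 were called, and 1, 6, 2 and 6 reached it, with a median of 51% of P4 small in WT hypoxia. Of 9 cytoskeletal, ciliary and muscle-type proteins 6 were called, and 1, 7, 4 and 8 reached the level. Of 12 genes of metabolism and vesicle traffic 8 were called (4, 10, 9 and 11), and of 7 transcription and RNA regulators 6 (1, 7, 6 and 6). Of 9 noncoding genes and pseudogenes 2 were called (3, 6, 3 and 7), and of 18 other or unassigned members 9 (5, 14, 11 and 14). The noncoding genes had the lowest WT hypoxia median, 0.50. Their median in Tg hypoxia was 0.65, the highest after the 0.72 of receptors and signalling proteins.

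In the genome the members were spread out. RefSeq matched 93 by symbol and 4 by an older symbol, and 3 were not matched; 88 were protein coding and 8 noncoding RNAs, on 20 chromosomes. Of the 97, 4 pairs lay within 500000 bp of each other, among them Klhl29 with 2810032G03Rik (38 bp apart on opposite strands), Wscd2 with Adrbk2 and Msrb3 with 9230105E05Rik. Whether the counting used strand is not given in the sources used here, so reads of such neighbours and of antisense genes, such as Pear1 over Insrr and Cd300lf over Rab37, may not be separated.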

How the data were processed

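The deposited table holds RPM values, which sum to 1000000 in each library, for 24062 genes in 66 libraries. Per the submitters' processing notes the authors used the mm10 build and the tools featureCounts 1.5.1, Bowtie2 2.0.13, TopHat2 and R 3.4.4; per the labels' protocols libraries were poly(A) selected, directional and amplified for 12 cycles. Whole reads were recovered from the RPM steps (100% of values within 0.01 of a whole read), and 3 reads were worth 0.129 to 0.619 RPM. Replicate libraries differed by more than sampling noise, with chi-square per gene of 3.42 to 229.

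The main tests were limma 3.58.1 in R 4.3.3 on log2(RPM + 1), with a filter of a mean of 1 RPM in at least 1 group and Benjamini-Hochberg adjusted p under 0.05. Log2 differences on this scale understate the change of low genes. Counts at an unadjusted p under 0.05 were made over the members only, so no share of all genes stands beside them. In all, 3 fits were made, over 24 ovarian libraries with P6 small left out (16 residual degrees of freedom), over the 12 D21 libraries (6) and over 18 libraries for D21 against P4 small (10). Alternatives were a pseudocount of 0.5, no filter, median-of-ratios scaling, edgeR 4.0.16 with TMM and DESeq2 1.42.0 on the recovered reads, the replicate number as a block, and each library left out. Limma was also run on simulated data in which few genes differed between the groups compared. Many real comparisons had far wider shifts, so those runs do not measure the error of the calls here. RPM is not divided by gene length, so levels are not compared between genes.

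Named were the 15 members with the highest score, up to 5 per direction in each comparison, members on the lists, and ranks 96 to 105. Members and lists were chosen with earlier results of these data known. P6 small and the course chose the members, so they carry no test. Some genes that this rule takes in are not reported here; counts and medians over the members include them.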

Additional observations from a re-analysis of the deposited data

How the results depend on the processing

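No called change of a named member changed sign under the alternatives run, though some lost their call. The split of all calls between higher and lower did turn over in some comparisons. P4 small against P4 large and WT normoxia against P4 small did so with median-of-ratios scaling. The members' median for P4 small against P3, with no member called, was 0.12 and ranged from -0.01 to 0.20 with 1 library left out. Median-of-ratios scaling moved the medians of all genes and of the members together, also beyond the shifts given beside the results. For Tg against WT in normoxia all genes went from 0.15 to -0.01 and the members from 0.59 to 0.41. Without an oxygen label all genes went from 0.21 to 0.07 and the members from 0.67 to 0.52. For the interaction all genes went from -0.12 to 0.01 and the members from -0.50 to -0.36. For Tg normoxia against P4 small all genes went from -0.08 to 0.04 and the members from -0.83 to -0.69. With 2 libraries a group at D21, leaving 1 out takes the lone library to vary like the other groups, and calls there are the least stable. Members lower in P4 small than in P4 large fell from 1 to 0 with a pseudocount of 0.5 and with no filter. Members higher in Tg hypoxia numbered 5, and 0 with no filter, 9 after median-of-ratios scaling, 11 by edgeR and 23 by DESeq2. Tg against WT in normoxia had 0 higher, and 33 by DESeq2. Without an oxygen label it had 17 higher, 7 with no filter, and 0 by edgeR and with the replicate block. WT normoxia had 2 members above P4 small, and 4 after median-of-ratios scaling, by edgeR and by DESeq2. With a margin of 0.5 in place of 1, 9 members reached the P4 small level in WT without an oxygen label, 26 in Tg without one and 29 in Tg normoxia; after median-of-ratios scaling 35 did in WT without an oxygen label.

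With 1 library left out in turn, calls ranged from 90 to 93 higher and 0 to 1 lower for P4 small against large, and 88 to 91 higher for P3 against E18.5. They ranged from 1 to 66 for WT hypoxia, 0 to 0 for Tg hypoxia, 0 to 50 for Tg against WT in normoxia, and 0 to 38 higher and 0 to 1 lower without an oxygen label. The interaction had 0 to 26 lower. Against P4 small, WT normoxia had 1 to 4 higher and 81 to 84 lower, WT hypoxia 5 to 9 and 22 to 39, Tg normoxia 2 to 5 and 42 to 65, and Tg hypoxia 8 to 13 and 14 to 27. Members at the P4 small level ranged from 17 to 26 in WT and 47 to 58 in Tg without an oxygen label, 22 to 32 in WT normoxia, 73 to 80 in WT hypoxia, 54 to 63 in Tg normoxia and 80 to 84 in Tg hypoxia. The cause of these shifts was not tested.

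Same-numbered libraries share only a number in the labels, and their deviations correlated at -0.165 to 0.215. With the replicate block, 62 members were called in WT hypoxia and 93 in P4 small against large. Of the 100 members, 97 were also chosen with a pseudocount of 0.5, 76 with a minimum of 20 RPM, 77 after median-of-ratios scaling, 80 against the highest single course library and 85 to 93 with a library left out. Genes under 0.619 RPM in the shallowest D21 library rest on 3 reads or fewer.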
